A study of Mus musculus with 24 samples.

Results

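The genes described here are 39 genes of DNA replication and cell division, chosen by symbol from the 23240 rows of a table of read counts per gene in mouse liver. They comprise replication licensing genes, genes of DNA synthesis and nucleotide supply, and genes of mitotic entry, chromosome structure, the spindle, the kinetochore and the anaphase-promoting complex. All 39 symbols were found. Of these, 34 passed the low-count filter that 13773 genes of the table passed, and only they were tested.

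The table held 24 liver libraries in 4 groups of 6, all from female NSG mice 8 weeks old, a strain that lacks mature T, B and NK cells. Injections into the tail vein were given 2 times a week for 5 weeks, and livers were collected for RNA 2 days after the final one. The injected material was about 10 µg of extracellular vesicles (EV, membrane particles that cells release) or phosphate-buffered saline (PBS). The groups were labelled MDA-MB-231 EV, from a human breast cancer line, MCF10A/miR-122 EV and MCF10A EV, both named after a non-tumorigenic human breast epithelial line, and PBS. Library names of the MCF10A EV group read 10A-pBABE. Library names go against the labels of the 2 remaining groups: those of the group labelled MCF10A/miR-122 EV point to MDA-MB-231, and those of the group labelled MDA-MB-231 EV point to miR-122. The labels are used here, and which vesicles each of these groups received is uncertain. The sources do not say that each library is a separate mouse, so p-values measure the spread between libraries.

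Total counts per library ran between 21.3 and 33.7 M (M, mega). Levels are given as CPM, which is counts per M counts of the library, on library sizes scaled by TMM (the normalization of edgeR). The 12 libraries with the labels MDA-MB-231 EV or MCF10A/miR-122 EV formed one set, apart from the 12 of MCF10A EV and PBS: the serpin gene Serpina3a had 0.285 to 5.85 CPM in that set and 110 to 325 CPM in the other. Set and treatment cannot be told apart in any comparison that crosses these sets. All 12 hepatocyte markers were detected, with summed levels of 122000 to 171000 CPM over the 24 libraries.

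A cell that divides first licenses its replication origins, when Cdc6 helps to load the MCM2-7 helicase, and then copies its DNA with the sliding clamp PCNA and nucleotides from ribonucleotide reductase and thymidine kinase. Cyclin A and B with CDK1 then drive entry into mitosis, Aurora and Polo-like kinases build the spindle, the checkpoint kinases hold anaphase back, and the anaphase-promoting complex ends mitosis by destroying cyclin B. Most hepatocytes of an adult liver rest outside the cycle and re-enter it after tissue loss. The RNA of these genes rises and falls with the cycle: E2F factors act at S phase promoters, and the DREAM and MuvB complexes with B-MYB and FOXM1 act on mitotic promoters through CHR elements, often beside CCAAT boxes bound by NF-Y.

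Promoter sequence is a feature that the choice of genes did not use. RefSeq promoter windows of build GRCm38.p6, covering 250 bases before to 50 bases after the start, were matched for 33 of the 39 genes. Both strands were searched for CHR elements (TTTGAA or TTTAAA), for CCAAT, and for E2F sites (TTTGGCGC, TTTCGCGC or TTTCCCGC), and neighbouring matches may overlap. The last 160 bases before the start are printed 5′ to 3′ in the direction of transcription, with matches in capitals, for the 4 genes with a lower level in the MCF10A EV against PBS test (Mki67, Top2a, Ccnb1, Cdc20), for 2 further mitotic genes (Ube2c, Kif11) and for 2 helicase subunits (Mcm6, Mcm5).
Mki67: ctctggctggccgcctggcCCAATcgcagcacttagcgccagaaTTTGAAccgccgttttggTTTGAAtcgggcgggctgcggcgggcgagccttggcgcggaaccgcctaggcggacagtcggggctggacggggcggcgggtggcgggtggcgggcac
Top2a: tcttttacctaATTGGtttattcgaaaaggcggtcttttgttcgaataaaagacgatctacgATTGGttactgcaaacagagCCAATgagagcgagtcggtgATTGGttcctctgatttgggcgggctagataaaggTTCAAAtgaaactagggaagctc
Ccnb1: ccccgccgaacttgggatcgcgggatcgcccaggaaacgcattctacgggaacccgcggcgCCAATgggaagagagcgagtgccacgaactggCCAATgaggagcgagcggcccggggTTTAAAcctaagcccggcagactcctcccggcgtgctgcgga
Cdc20: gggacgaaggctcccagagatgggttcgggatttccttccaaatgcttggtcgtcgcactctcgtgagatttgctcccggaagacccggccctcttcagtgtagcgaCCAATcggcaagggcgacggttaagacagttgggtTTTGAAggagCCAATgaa
Ube2c: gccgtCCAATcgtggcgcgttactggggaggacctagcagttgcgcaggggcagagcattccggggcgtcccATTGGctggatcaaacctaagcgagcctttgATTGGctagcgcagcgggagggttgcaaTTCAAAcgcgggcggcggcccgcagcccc
Kif11: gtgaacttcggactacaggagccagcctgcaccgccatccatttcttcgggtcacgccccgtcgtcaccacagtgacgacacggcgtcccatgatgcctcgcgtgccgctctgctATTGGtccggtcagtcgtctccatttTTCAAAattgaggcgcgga
Mcm6: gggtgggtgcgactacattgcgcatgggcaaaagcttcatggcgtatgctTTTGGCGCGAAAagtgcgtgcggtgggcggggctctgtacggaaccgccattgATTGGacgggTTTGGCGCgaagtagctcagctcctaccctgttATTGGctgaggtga
Mcm5: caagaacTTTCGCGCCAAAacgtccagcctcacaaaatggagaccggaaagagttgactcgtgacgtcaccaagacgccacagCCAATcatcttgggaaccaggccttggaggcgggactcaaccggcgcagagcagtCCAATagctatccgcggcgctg
These stretches lie at chr7:135716380-135716539, chr11:99024190-99024349, chr13:100786487-100786646, chr4:118437344-118437503 and chr1:128359706-128359865 on the minus strand and at chr2:164769769-164769928, chr19:37376222-37376381 and chr8:75109349-75109508 on the plus strand. In each of the 6 mitotic promoters a CHR element and at least 1 CCAAT box are marked, and in the Mcm6 and Mcm5 promoters E2F letters stand with CCAAT boxes.

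Each motif was counted in the full window and within 100 bases before to 50 after the start. A CHR element was found in 19 of 23 mitotic genes, 4 of 10 replication genes and 30.6% of 27025 mouse genes in the full window, and in 18, in 2 and in 14.7% in the narrow one. CCAAT was found in 18 of 23 mitotic genes, 8 of 10 replication genes and 41.1% of all genes in the full window, and in 16, in 7 and in 26.3% in the narrow one. Both together were found in 17 of 23 mitotic genes, 3 of 10 replication genes and 12.2% of all genes in the full window, and in 15, in 1 (Rrm2) and in 3.5% in the narrow one. An E2F site was found in 1 of 23 mitotic genes (Cdk1), 5 of 10 replication genes (Cdc6, Mcm3, Mcm5, Mcm6 and Mcm7) and 2.12% of all genes in the full window, and in 0, in 3 and in 1.16% in the narrow one. These matches describe letters and say nothing of binding in these livers.

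**Figure D1:**
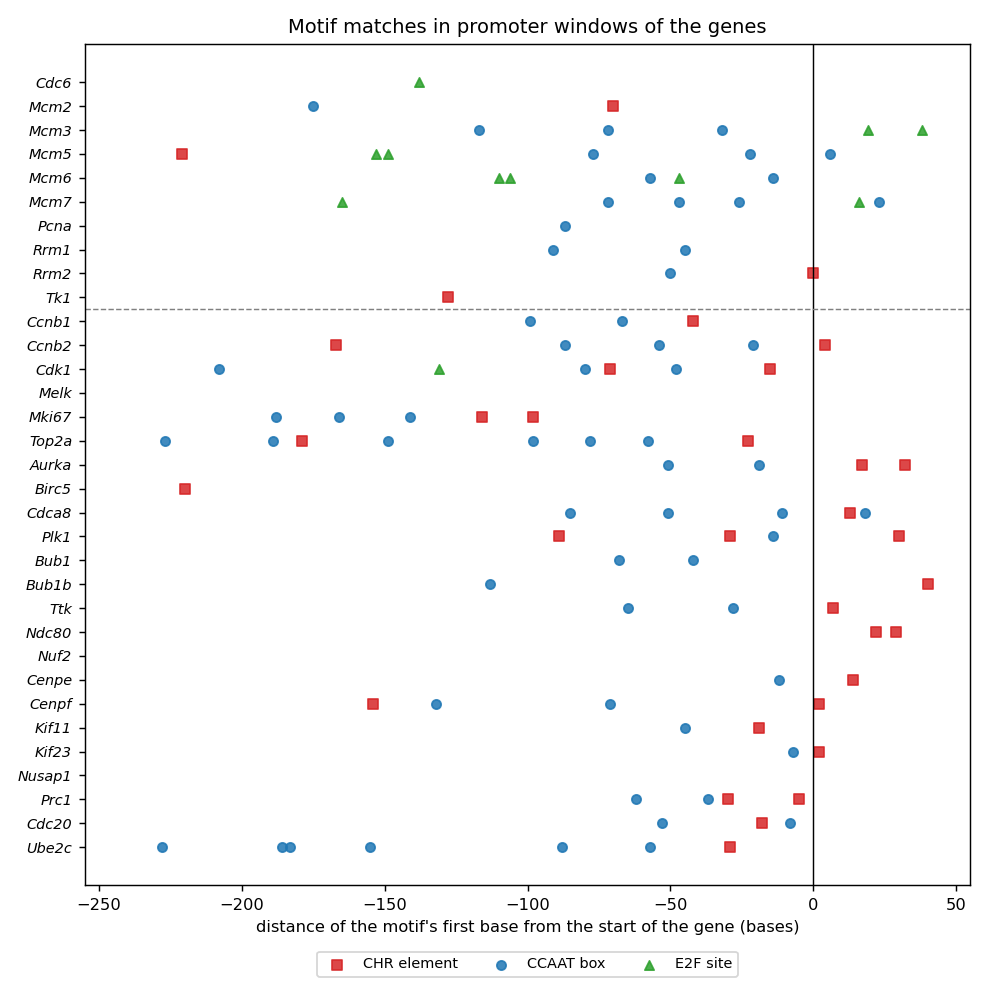
Matches to 3 motifs in the promoter windows of 33 genes (rows, in role order, replication genes above the dashed line); the horizontal axis is the distance of a match from the start of the gene in bases, and each mark is 1 match. CHR elements (squares) and CCAAT boxes (circles) lie close to the start of most mitotic genes, and E2F sites (triangles) appear in 5 replication genes and in Cdk1.

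The libraries of 1 group differed widely for these genes. The summed level of the 39 genes was at 85.8 to 126 CPM (median 106) in MDA-MB-231 EV livers, at 96.3 to 119 CPM (median 112) in MCF10A/miR-122 EV livers, at 73.7 to 97.9 CPM (median 82.5) in MCF10A EV livers and at 90.5 to 207 CPM (median 112) in PBS livers. PBS replicate 3 held the 207 CPM, and the next PBS library was at 130 CPM. That library was the highest of the 6 PBS libraries for 33 of the 39 genes and the highest of all 24 libraries for 31. The share of all genes tested for which this library was the highest was not counted. Its level was a median of 2.82-fold (0.998 to 8.3) that of the median of the other PBS libraries, whereas the same ratio over all genes tested was 0.998.

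The excess of PBS replicate 3 was uneven across roles. The largest ratios were in the spindle checkpoint (median 4.41-fold over 3 genes), chromosome structure (4-fold over Mki67 and Top2a) and kinetochore genes (3.70-fold over 4 genes). The checkpoint value rests on Bub1 (4.41-fold) and Ttk (8.3-fold), which had too few counts to test. Their medians in the other PBS libraries were 0.142 and 0.106 CPM. The tested checkpoint gene, Bub1b, was at 2.84-fold. The 4 genes of DNA synthesis and nucleotides had a median of 1.36-fold, and Mcm7, Rrm1 and Aurka were at 0.998-fold, 1.03-fold and 1.12-fold. The other PBS libraries had median ratios of 1.15 (replicate 1), 0.516 (replicate 2), 1.00 (replicate 4), 1.01 (replicate 5) and 0.735 (replicate 6). Within groups, the ratio of a library to the median of the others, over the 34 tested genes, had a median of 0.748 to 1.2 in MDA-MB-231 EV livers, 0.904 to 1.1 in MCF10A/miR-122 EV livers, 0.737 to 1.19 in MCF10A EV livers and 0.517 to 2.81 in PBS livers.

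In PBS replicate 4 the sum of licensing genes was high and that of mitotic genes was not. The 7 licensing genes summed to 51.9 CPM in PBS replicate 3, 44.5 CPM in PBS replicate 4 and 22.4 to 30.4 CPM in the other PBS libraries. The 28 mitotic genes summed to 91.4 CPM in PBS replicate 3, but to 32.4 CPM in PBS replicate 4, within the 19.3 to 41.2 CPM of the other PBS libraries. Single genes did not all follow their class there: relative to the median of PBS replicates 1, 2, 5 and 6, PBS replicate 4 was at 1.01-fold for the licensing gene Mcm7 and at 1.96-fold and 1.7-fold for the mitotic genes Plk1 and Ccnb1. In MCF10A EV livers the licensing sum was at 17.8 to 30.5 CPM and the mitotic sum at 16.1 to 26.8 CPM.

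**Figure D2:**
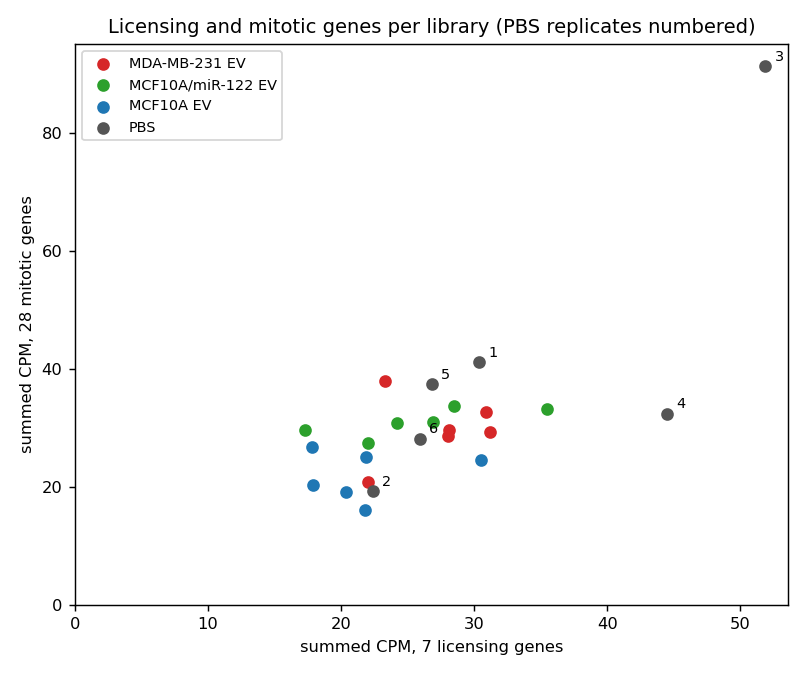
Summed CPM of 7 licensing genes (horizontal axis) against summed CPM of 28 mitotic genes (vertical axis); each point is 1 library, coloured by group, and PBS libraries carry their replicate number. PBS replicate 3 lies at 51.9 and 91.4 CPM, PBS replicate 4 is high on the licensing axis only, and MCF10A EV libraries lie at 16.1 to 26.8 CPM on the mitotic axis.

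Some markers of blood precursors were also high in PBS replicate 3. Of 10 erythroid markers found (of 11 listed), 6 were higher there than in any other PBS library, and their sum was 1240 CPM, with up to 607 CPM in the other PBS libraries. Most of that sum came from the globin genes Hba-a1 (857 CPM) and Hbb-b1 (303 CPM), while the erythroid factor gene Klf1 and the transferrin receptor gene Tfrc were at 3.76 and 43.9 CPM, with up to 5.65 and 72.1 CPM in the other PBS libraries. Rhag and Epb4.2 were at 0. Of 12 neutrophil and myeloid precursor markers, 10 were highest in PBS replicate 3 among PBS libraries, with a sum of 5.78 CPM and up to 1.74 CPM in the others. Several of these rest on few reads: Ms4a3 had 1 count there, Ctsg and Camp had 3 each and Ltf had 6. Of this list only Prtn3, S100a8 and S100a9 passed the low-count filter. The granule genes Elane and Mpo were at 0.479 and 0.737 CPM, and Retnlg and Mmp8 were at 0. All 5 megakaryocyte markers were highest there among PBS libraries, with a sum of 7.55 CPM and up to 5.05 CPM in the others, and lymphocyte markers summed to 1.26 to 2.39 CPM over the PBS libraries. Margins were small for Gp9 (3 counts, 0.11 CPM, next 0.0997), Gp1bb (0.479, next 0.432) and Itga2b (3.57, next 3.2). PBS replicate 3 was highest among PBS libraries for 1 of 12 hepatocyte, 0 of 7 cholangiocyte and 2 of 12 macrophage markers. It was so for 1 of 10 endothelial, 0 of 10 stellate and 3 of 10 lymphocyte markers. MCF10A EV replicate 1 had 1400 CPM of erythroid markers and MCF10A EV replicate 4 had 6.22 CPM of the myeloid ones, with mitotic sums of 25.0 and 26.8 CPM. Their part in the results was not tested.

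**Figure D3:**
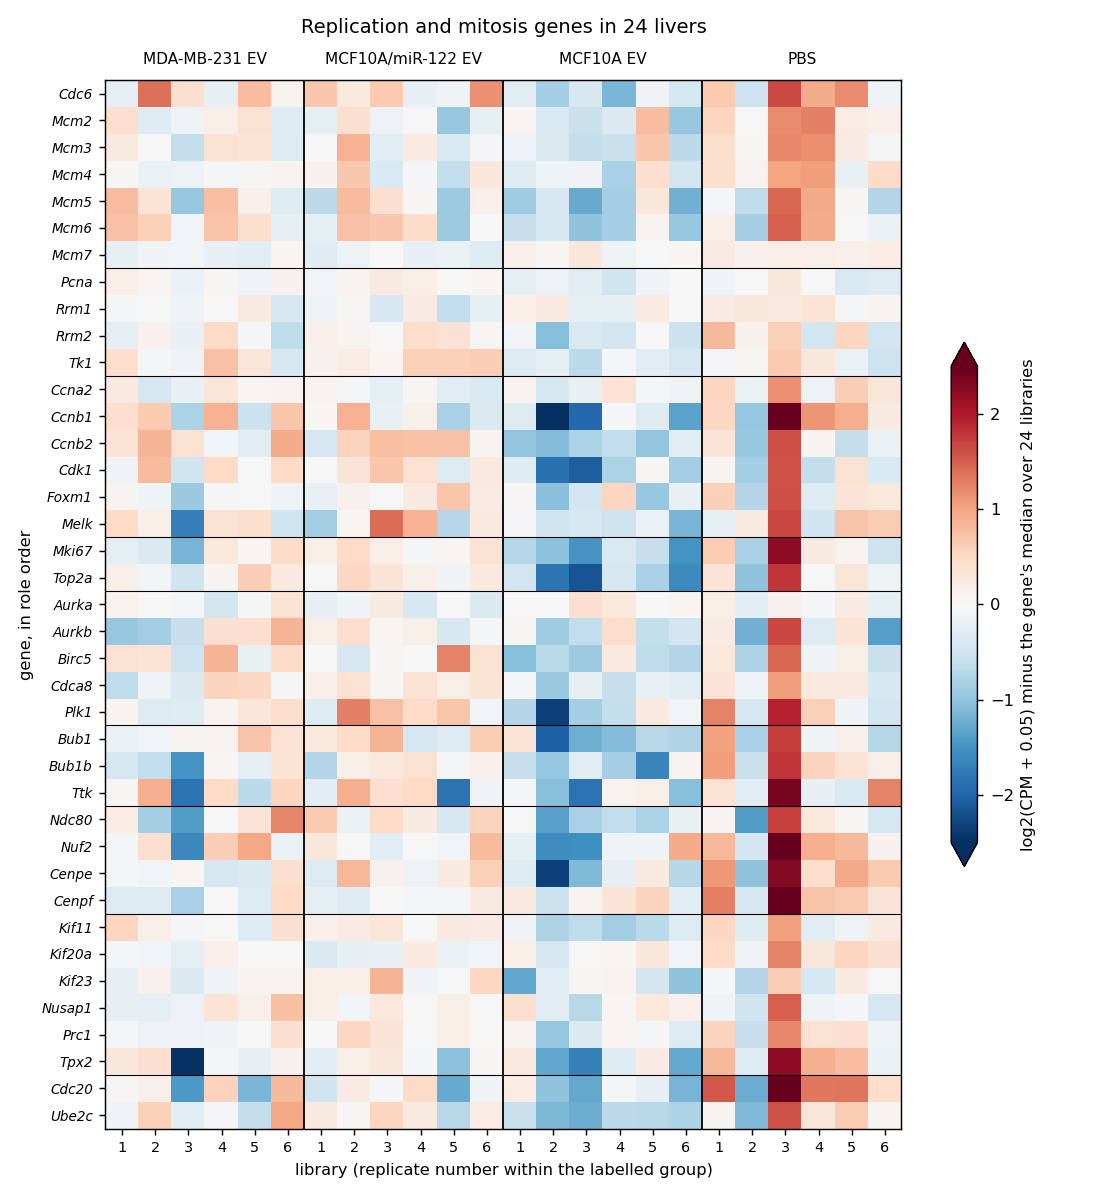
Level of the 39 genes (rows, in role order, lines between roles) in the 24 libraries (columns, by labelled group and replicate number), as log2(CPM + 0.05) minus the gene's median over the 24 libraries. PBS replicate 3 is the highest library in 31 rows, and Mcm7, Pcna, Rrm1 and Aurka vary little.

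In livers given MCF10A EV the RNA of most division genes was at a lower level than in livers given PBS, and 4 genes passed the test. Mki67, Top2a, Ccnb1 and Cdc20 fell, and none of the 34 tested genes rose (adjusted p under 0.05 in the quasi-likelihood test of edgeR). Over all genes tested, 0.697% were called lower and 0.37% higher. The log2 fold change was negative for 33 of 34 genes, with a median of -0.81 (-2.21 to 0.14), against a median of 0.008 over all genes. The 24 tested mitotic genes had a median of -1.1 and the 10 tested replication genes a median of -0.71. None of the 34 genes had all MCF10A EV libraries under all PBS libraries, which is near the share of 0.486% over all genes. In whole tissue, fewer dividing cells and less of such RNA per cell cannot be told apart.

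These calls were not kept when single libraries were left out, PBS replicate 3 among others. Without PBS replicate 3 none of the 34 genes was called, 31 remained negative, 30 moved closer to 0 and the median was -0.63. PBS replicate 3 was the highest PBS library for most of these genes, so leaving it out raises their values over PBS by construction. Over all genes 0.123% were then called lower. Leaving out PBS replicate 1 also left 0 calls, and leaving out MCF10A EV replicate 2, 3 or 6 did the same, whereas leaving out PBS replicate 5 gave 11, PBS replicate 2 gave 8 and PBS replicate 6 gave 7, all lower. A fit that weights libraries by their overall spread (voom with quality weights) gave PBS replicate 3 a weight of 0.64 on a scale that ran between 0.316 and 2.11, and PBS replicate 5 the lowest weight in the group, 0.524. That fit called 5 genes lower (Mcm2, Mcm3, Mcm4, Top2a and Ccnb1) against 2.88% of all genes. DESeq2 called 10, and edgeR on the 12 libraries of these groups alone called 0. Shares over all genes are not given for these last fits or for leaving out libraries other than PBS replicate 3. Their counts therefore do not single out the division genes.

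**Figure D4:**
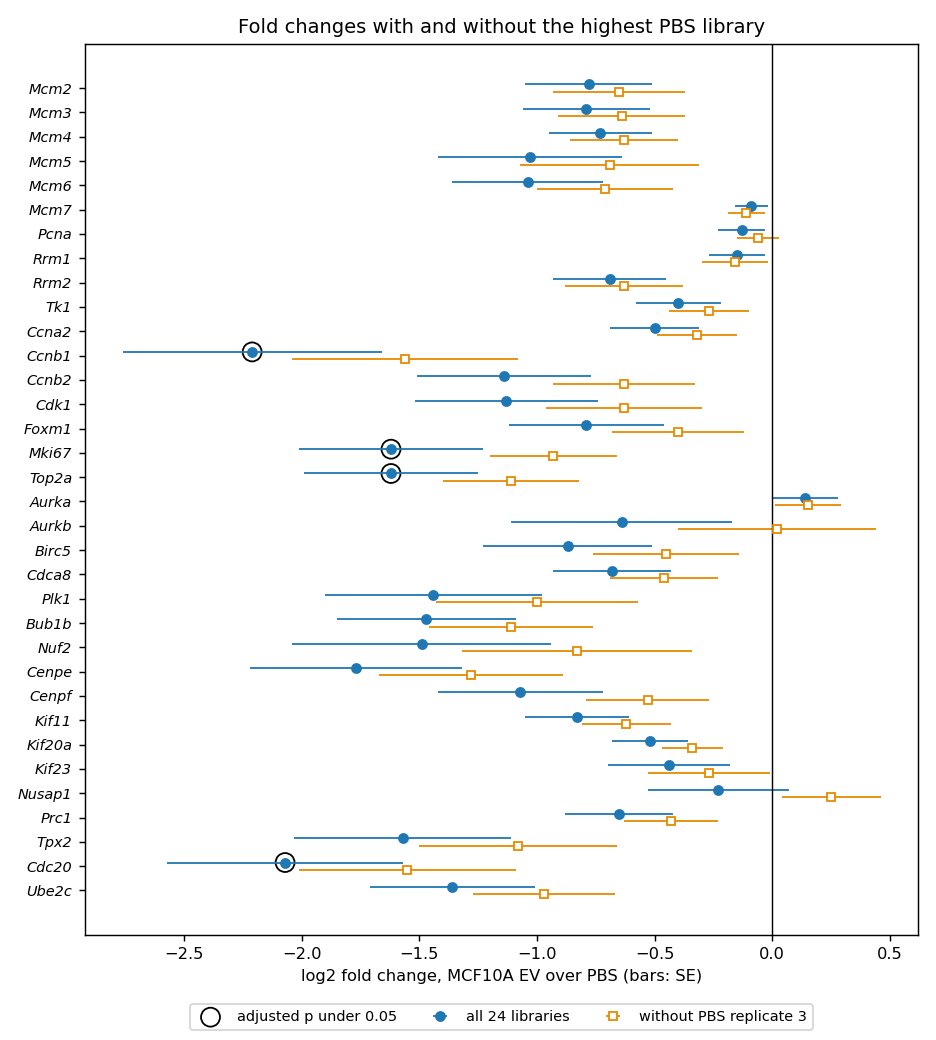
Log2 fold change of MCF10A EV over PBS (horizontal axis; bars are standard errors) for the 34 tested genes, with all 24 libraries (filled) and without PBS replicate 3 (open). Rings mark the 4 genes called with all libraries, none of which was called without PBS replicate 3. Of the 34 open symbols, 30 lie closer to 0, a move that leaving out the highest PBS library brings by construction.

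Among licensing genes, the helicase subunit gene Mcm4 was at 2.63 to 3.14 CPM (median 2.96) in MDA-MB-231 EV livers, 1.91 to 4.76 (3.05) in MCF10A/miR-122 EV livers, 1.68 to 3.99 (2.55) in MCF10A EV livers and 2.61 to 6.21 (4.08) in PBS livers. The groups overlapped, and the MCF10A EV over PBS log2 fold change was -0.73 (SE 0.22, adjusted p = 0.102). Mcm7, another subunit of the same helicase, was at 6.77 to 8.51 CPM (7.44) in MDA-MB-231 EV livers, 6.60 to 8.25 (7.22) in MCF10A/miR-122 EV livers, 7.48 to 9.99 (8.45) in MCF10A EV livers and 8.84 to 9.43 (9.22) in PBS livers. PBS libraries were tightly grouped for Mcm7, above every MDA-MB-231 EV and every MCF10A/miR-122 EV library. Both comparisons cross the library sets, and the share of all genes separated in this way was not counted. Mcm7 shares 32.7% of its 32-base words with other transcripts, among them a predicted gene and Ap4m1, so its counts are uncertain. Mcm2, Mcm3, Mcm5 and Mcm6 had MCF10A EV over PBS values of -0.78, -0.79, -1.03 and -1.04, with adjusted p between 0.109 and 0.182. Cdc6, the loader, had 1 to 17 counts and was not tested.

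Among genes of DNA synthesis and nucleotides, Rrm2, the regulated subunit of ribonucleotide reductase, was at 0.494 to 1.15 CPM (median 0.729) in MDA-MB-231 EV livers, 0.793 to 1.10 (0.857) in MCF10A/miR-122 EV livers, 0.354 to 0.798 (0.58) in MCF10A EV livers and 0.558 to 1.44 (1.02) in PBS livers. Its MCF10A EV over PBS value was -0.69 (SE 0.24, adjusted p = 0.156). Tk1, thymidine kinase, was at 16.9 to 37.1 CPM (24.8) in MDA-MB-231 EV livers, 23.2 to 34.1 (29.4) in MCF10A/miR-122 EV livers, 14.1 to 21.7 (18.1) in MCF10A EV livers and 15.5 to 34.9 (22.3) in PBS livers. All MCF10A/miR-122 EV libraries lay above all MCF10A EV libraries for Tk1. Pcna, the sliding clamp, and Rrm1, the large reductase subunit, had MCF10A EV over PBS values of -0.13 and -0.15 (adjusted p = 0.497 and 0.543). Rrm2 (12.2%) and Pcna (23.0%) share words with other transcripts.

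Among cyclins and regulators of mitotic entry, Ccnb1, cyclin B1, was at 0.232 to 0.844 CPM (median 0.66) in MDA-MB-231 EV livers, 0.229 to 0.837 (0.418) in MCF10A/miR-122 EV livers, 0.0354 to 0.421 (0.239) in MCF10A EV livers and 0.199 to 2.91 (0.759) in PBS livers. It fell with MCF10A EV against PBS (log2 fold change -2.21, SE 0.55, adjusted p = 0.0471) and had -1.56 (adjusted p = 0.164) without PBS replicate 3. It shares 27.5% of its words with other transcripts, among them the pseudogene Ccnb1-ps. Ccna2, cyclin A2, was at 1.80 to 2.97 CPM (2.53) in MDA-MB-231 EV livers, 1.83 to 2.57 (2.2) in MCF10A/miR-122 EV livers, 1.77 to 3.09 (2.29) in MCF10A EV livers and 2.13 to 5.41 (3.25) in PBS livers. Ccna2 shares 11.9% of its words with other transcripts, most of them with Exosc9. Every group overlapped every other for both cyclins. Ccnb2 (cyclin B2), Cdk1 (their kinase) and Foxm1 (a transcription factor of mitotic genes) had MCF10A EV over PBS values of -1.14, -1.13 and -0.79, none of them called. Melk, a kinase gene, had 1 to 22 counts and was not tested.

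Of the pair of chromosome structure genes, Mki67, the gene of the proliferation marker Ki-67 that coats mitotic chromosomes, was at 1.49 to 4.70 CPM (median 3.20) in MDA-MB-231 EV livers, 3.29 to 4.82 (3.80) in MCF10A/miR-122 EV livers, 1.18 to 2.62 (1.86) in MCF10A EV livers and 1.93 to 16.3 (3.79) in PBS livers. It fell with MCF10A EV against PBS (-1.62, SE 0.39, adjusted p = 0.0397), and without PBS replicate 3 the value was -0.93 (adjusted p = 0.14). Top2a, the topoisomerase that disentangles sister chromatids, was at 1.06 to 2.35 CPM (1.63) in MDA-MB-231 EV livers, 1.41 to 2.19 (1.74) in MCF10A/miR-122 EV livers, 0.299 to 1.12 (0.651) in MCF10A EV livers and 0.731 to 5.30 (1.70) in PBS livers. It fell with MCF10A EV against PBS (-1.62, SE 0.37, adjusted p = 0.033), with -1.11 (adjusted p = 0.101) without PBS replicate 3. For both genes all MCF10A EV libraries lay below all MCF10A/miR-122 EV libraries, while PBS replicates 2 and 6 lay within the MCF10A EV range for Mki67 and PBS replicate 2 did so for Top2a.

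Among mitotic kinases and the chromosomal passenger complex, Plk1, Polo-like kinase 1, was at 0.288 to 0.53 CPM (median 0.403) in MDA-MB-231 EV livers, 0.292 to 0.982 (0.598) in MCF10A/miR-122 EV livers, 0.0354 to 0.456 (0.222) in MCF10A EV livers and 0.26 to 1.58 (0.476) in PBS livers. Its MCF10A EV over PBS value was -1.44 (SE 0.46, adjusted p = 0.118), and it shares 18.1% of its words, with the pseudogene Plk-ps1 among others. Aurka, Aurora A kinase of the spindle poles, was at 1.96 to 3.53 CPM (2.69) in MDA-MB-231 EV livers, 2.05 to 3.20 (2.44) in MCF10A/miR-122 EV livers, 2.72 to 3.67 (2.78) in MCF10A EV livers and 2.23 to 3.14 (2.79) in PBS livers. It was the 1 tested gene with a positive MCF10A EV over PBS value, 0.14 (SE 0.14, adjusted p = 0.628). The passenger complex genes Aurkb, Birc5 and Cdca8 (Aurora B, survivin and borealin) had -0.64, -0.87 and -0.68, none of them called, and Aurkb had 0.02 without PBS replicate 3.

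In the checkpoint and the kinetochore, Bub1b, the checkpoint protein BubR1, was at 0.132 to 0.60 CPM (median 0.357) in MDA-MB-231 EV livers, 0.26 to 0.616 (0.515) in MCF10A/miR-122 EV livers, 0.114 to 0.50 (0.264) in MCF10A EV livers and 0.299 to 1.73 (0.66) in PBS livers. Its MCF10A EV over PBS value was -1.47 (SE 0.38, adjusted p = 0.0557). Cenpe, a kinetochore motor, was at 0.27 to 0.53 CPM (0.363) in MDA-MB-231 EV livers, 0.292 to 0.722 (0.435) in MCF10A/miR-122 EV livers, 0.0354 to 0.456 (0.254) in MCF10A EV livers and 0.166 to 2.06 (0.708) in PBS livers, with an MCF10A EV over PBS value of -1.77 (SE 0.45, adjusted p = 0.0502). PBS replicate 3 held the highest value of each, and the groups overlapped. Cenpf, a large kinetochore protein, was at 0.397 to 1.06 CPM (0.574) in MDA-MB-231 EV livers, 0.578 to 0.87 (0.722) in MCF10A/miR-122 EV livers, 0.495 to 1.10 (0.833) in MCF10A EV livers and 0.532 to 4.38 (1.21) in PBS livers. Its MCF10A EV over PBS value was -1.07 (adjusted p = 0.125), and that of Nuf2, of the NDC80 complex, was -1.49 (adjusted p = 0.169). Bub1, Ttk and Ndc80 had 0 to 17, 0 to 24 and 1 to 18 counts and were not tested.

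Among spindle motors and microtubule binders, Kif11, the kinesin that pushes spindle poles apart, was at 0.986 to 1.83 CPM (median 1.33) in MDA-MB-231 EV livers, 1.23 to 1.55 (1.44) in MCF10A/miR-122 EV livers, 0.655 to 1.17 (0.773) in MCF10A EV livers and 0.997 to 2.58 (1.29) in PBS livers. Its MCF10A EV over PBS value was -0.83 (SE 0.22, adjusted p = 0.0573), and 1 MCF10A EV library, replicate 1, reached the range of PBS. Kif20a, a kinesin of the central spindle, was at 2.62 to 3.41 CPM (3.08) in MDA-MB-231 EV livers, 2.40 to 3.70 (2.75) in MCF10A/miR-122 EV livers, 2.33 to 3.80 (3.19) in MCF10A EV livers and 2.89 to 7.40 (4.28) in PBS livers. PBS replicate 3 again held the highest value, and Kif20a shares 26.7% of its words with other transcripts, those of Cdc23. Kif23 (a kinesin of cytokinesis), Nusap1, Prc1 and Tpx2 (binders of spindle microtubules) had MCF10A EV over PBS values of -0.44, -0.23, -0.65 and -1.57, none of them called. Nusap1 had 0.25 without PBS replicate 3, and Prc1 shares 12.3% of its words, most of them with Rccd1.

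In the anaphase-promoting complex, its mitotic activator Cdc20 was at 0.199 to 1.13 CPM (median 0.659) in MDA-MB-231 EV livers, 0.229 to 0.89 (0.586) in MCF10A/miR-122 EV livers, 0.225 to 0.713 (0.408) in MCF10A EV livers and 0.233 to 4.60 (1.64) in PBS livers. It fell with MCF10A EV against PBS (-2.07, SE 0.50, adjusted p = 0.0397), with -1.55 (adjusted p = 0.152) without PBS replicate 3. PBS replicate 2, at 0.233 CPM, lay among the MCF10A EV libraries. Ube2c, the ubiquitin-conjugating enzyme of the complex, was at 0.732 to 2.26 CPM (1.09) in MDA-MB-231 EV livers, 0.686 to 1.68 (1.31) in MCF10A/miR-122 EV livers, 0.449 to 0.755 (0.664) in MCF10A EV livers and 0.499 to 3.54 (1.30) in PBS livers. Its MCF10A EV over PBS value was -1.36 (SE 0.35, adjusted p = 0.0551). Cdc20 (25.5%) and Ube2c (24.6%) share words with other transcripts, those of the predicted gene Gm7856 and of Tnnc2 among them.

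**Figure D5:**
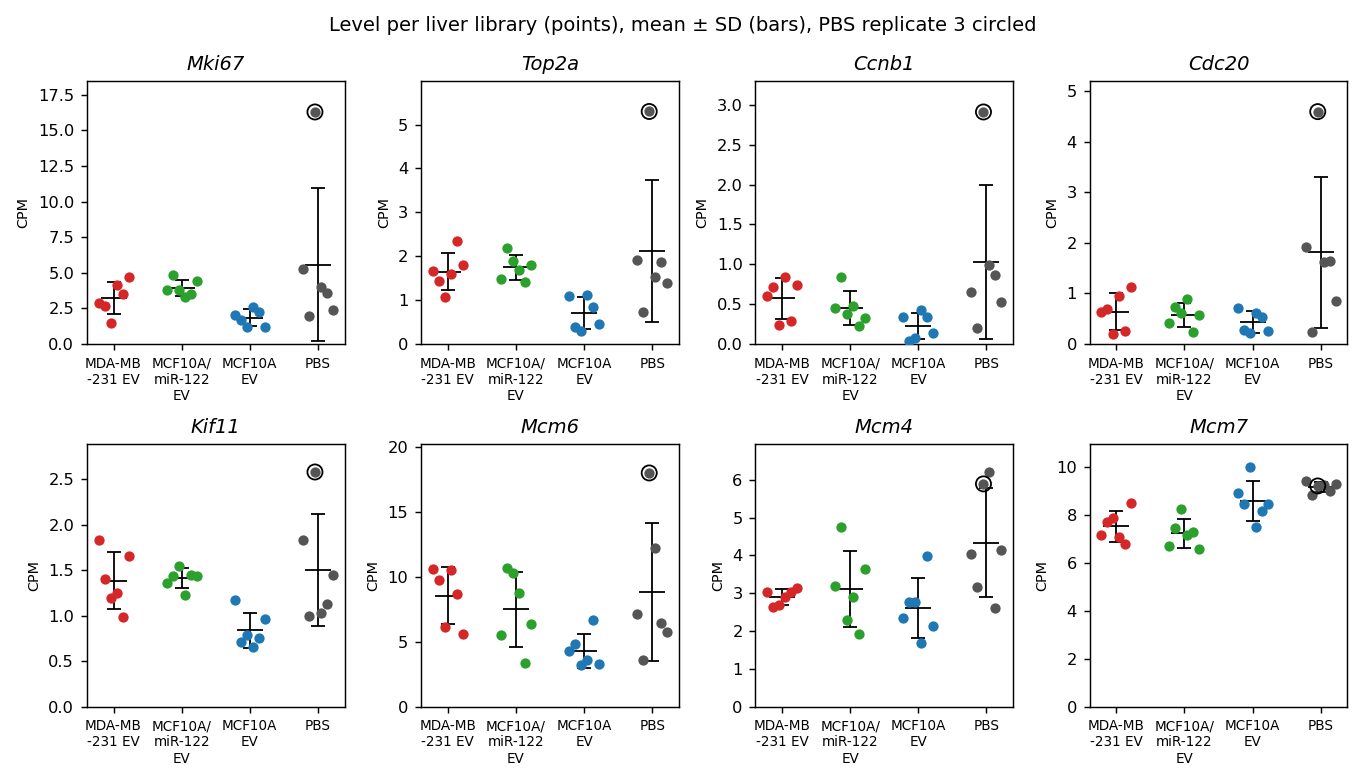
CPM of 8 genes in each of the 24 libraries (points), with mean and SD per group (bars); PBS replicate 3 is ringed. PBS replicate 3 is the highest PBS library in every panel but those of Mcm4 and Mcm7, and for Kif11 the MCF10A/miR-122 EV libraries (1.23 to 1.55 CPM) lie above the MCF10A EV libraries (0.655 to 1.17 CPM).

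Livers with the label MDA-MB-231 EV or MCF10A/miR-122 EV also had lower levels of some of these genes than PBS livers, in comparisons that cross the library sets. With the MCF10A/miR-122 EV label 7 of 34 genes fell against PBS (Cdc20, Rrm1, Ccna2, Cenpf, Mcm2, Mcm7 and Kif20a) and none rose, beside 9.53% of all genes lower and 8.35% higher. The median log2 fold change was -0.31, against 0.001 over all genes. With the MDA-MB-231 EV label 5 of 34 fell (Cdc20, Cenpf, Mcm7, Bub1b and Kif20a) and none rose, beside 6.34% lower and 5.33% higher, and the median was -0.34. The 2 comparisons share the PBS libraries.

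Without PBS replicate 3 fewer of these genes were called against PBS here too. Over all genes 8.58% were then called lower for the MCF10A/miR-122 EV label and 5.98% for the MDA-MB-231 EV label. Mcm7 and Kif20a remained called for the MCF10A/miR-122 EV label, the median moved to 0.01 and 16 of 34 genes were negative, against 29 with all libraries. Cenpf and Mcm7 remained called for the MDA-MB-231 EV label, with a median of -0.18 and 20 negative genes, against 29. Mcm7, for which PBS replicate 3 was not high, had with all libraries -0.34 (SE 0.07, adjusted p = 0.00282) with the MCF10A/miR-122 EV label and -0.29 (SE 0.07, adjusted p = 0.0143) with the MDA-MB-231 EV label. Cdc20 had -1.64 (adjusted p = 0.0174) and -1.50 (adjusted p = 0.0375) with all libraries. Without PBS replicate 3 both calls of Cdc20 were lost, with -1.11 (adjusted p = 0.0833) and -0.97 (adjusted p = 0.152).

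Against MCF10A EV livers, some division genes were higher in both groups of the other library set. With the MCF10A/miR-122 EV label 5 of 34 genes rose (Tk1, Top2a, Ccnb2, Kif11 and Kif23) and Mcm7 fell, beside 7.53% of all genes higher and 8.71% lower, with a median of 0.54. With the MDA-MB-231 EV label Top2a, Ccnb2 and Kif11 rose and none fell, beside 3.24% higher and 4.44% lower, with a median of 0.42. Top2a had 1.35 (SE 0.37, adjusted p = 0.0148) and 1.26 (SE 0.37, adjusted p = 0.0381) in these comparisons, which share the MCF10A EV libraries. Ccnb2, at 0.732 to 1.73 CPM (median 1.15) in MDA-MB-231 EV livers, 0.65 to 1.52 (1.41) in MCF10A/miR-122 EV livers and 0.389 to 0.715 (0.453) in MCF10A EV livers, had 1.30 (adjusted p = 0.016) for the MCF10A/miR-122 EV label and 1.26 (adjusted p = 0.0342) for the MDA-MB-231 EV label. Kif11 had 0.75 (adjusted p = 0.0199) and 0.72 (adjusted p = 0.0433), and Tk1 had 0.69 (adjusted p = 0.00945) and 0.53 (adjusted p = 0.0701).

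The groups did not overlap for some of these genes. All MCF10A/miR-122 EV libraries lay above all MCF10A EV libraries for Cdca8, Kif11, Mki67, Tk1 and Top2a, as for 2.4% of all genes. All MDA-MB-231 EV libraries lay above all MCF10A EV libraries for 1 of 34 genes, Ccnb2, which is near the share of 2.01% over all genes. Top2a, Ccnb2 and Kif11 were called for the MCF10A/miR-122 EV label under every alternative fit and with any 1 library of the 2 groups left out. For the MDA-MB-231 EV label the count was 0 without MCF10A EV replicate 2 or 3 or without MDA-MB-231 EV replicate 1 or 2. The sum of 12 macrophage markers was at 421 to 871 CPM (median 546) in MCF10A/miR-122 EV livers and 376 to 419 CPM (402) in MCF10A EV livers, with 9 of 12 markers called higher. It was at 347 to 491 CPM (428) in MDA-MB-231 EV livers, with none called against MCF10A EV. The part of these cells in the division gene values was not tested.

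Between the MDA-MB-231 EV and MCF10A/miR-122 EV labels, which lie within 1 library set, no division gene was called. Over all genes 0.0436% were called higher and 0.211% lower. The log2 fold changes of the 34 genes ran between -0.54 (Plk1, SE 0.41) and 0.31 (Ccnb1, SE 0.50), with a median of -0.04. None had an unadjusted p under 0.05, and DESeq2 and voom also called 0. Mki67 had -0.29 (SE 0.37) and Top2a -0.08 (SE 0.33), which gives the precision for single genes.

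Genes that act with these were counted from lists of the same processes. In MCF10A EV over PBS, 5 of 47 tested other mitosis genes fell and none rose (median -0.74), and 1 of 40 tested other replication genes fell (median -0.26). Both counts stand beside 0.697% of all genes called lower and 0.37% higher. Hmmr, a spindle and hyaluronan-binding protein gene, was at 0.0357 to 0.468 CPM (median 0.177) in MCF10A EV livers and 0.366 to 4.79 CPM (0.877) in PBS livers, a log2 fold change of -2.73 at an adjusted p of 0.0221. Kif2c, a microtubule-depolymerising kinesin, had -2 (adjusted p = 0.0221), and Ckap2l, a spindle protein gene, had -2.21 (adjusted p = 0.0273). None of the 5 mitosis genes was called without PBS replicate 3, where the list's median was -0.42 and 0.123% of all genes were called lower.

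Of the related genes called in this comparison, 3 regulators of G1, licensing and mitotic entry were also called without PBS replicate 3. Ccnd1, cyclin D1 of the G1 phase, was at 26 to 46.2 CPM (median 35.0) in MCF10A EV livers and 66.4 to 98.6 CPM (92.1) in PBS livers, groups that did not overlap, and had -1.28 (adjusted p = 0.00979) without PBS replicate 3. Wee1, the kinase that holds CDK1 inactive, was at 0.935 to 2.36 CPM (1.92) in MCF10A EV livers and 1.74 to 11.3 CPM (8.05) in PBS livers, with -2.08 (adjusted p = 0.00712) in all libraries and -1.97 (adjusted p = 0.0239) without PBS replicate 3. Cdt1, the licensing factor that works with Cdc6, was at 0.786 to 1.82 CPM (1.28) in MCF10A EV livers and 1.18 to 5.07 CPM (3.15) in PBS livers, with -1.30 (adjusted p = 0.0152) and -1.28 (adjusted p = 0.0463). None of 21 E2F and DREAM regulators was called in this comparison, with a median of -0.01, beside 0.697% of all genes called lower and 0.37% higher.

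In the comparisons that cross the library sets, related genes changed in both directions. Against MCF10A EV, Wee1 rose by 2.65 (adjusted p = 1.27e-05) with the MCF10A/miR-122 EV label and by 2 (adjusted p = 0.000749) with the MDA-MB-231 EV label. Ccne1, cyclin E1 of S phase entry, rose by 2.34 (adjusted p = 0.000161) and by 1.82 (adjusted p = 0.00465). Ccnd1 was at 50.5 to 98.1 CPM (median 66.8) in MDA-MB-231 EV livers and 26 to 46.2 CPM (35.0) in MCF10A EV livers, groups that did not overlap, with 0.98 (adjusted p = 0.00126). Cdkn1a, the CDK inhibitor p21, was at 3.11 to 8.23 CPM (4.85) in MDA-MB-231 EV livers and 5.32 to 59.7 CPM (24) in MCF10A EV livers, with -2.53 (adjusted p = 0.00931). With that label Mcm10, a replication fork protein gene, had 0.89 (adjusted p = 0.0144). With the MCF10A/miR-122 EV label E2f8, a repressive E2F factor, had -1.49 (adjusted p = 0.000716), Gmnn, the licensing inhibitor geminin, had 0.68 (adjusted p = 0.00105), Tfdp2, a dimer partner of E2F factors, had 0.5 (adjusted p = 0.00182) and Timeless, which stabilises replication forks, had -0.68 (adjusted p = 0.00187).

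Against PBS, Timeless and its partner Tipin were lower in both groups of the other library set. They had -0.72 (adjusted p = 0.000956) and -0.62 (adjusted p = 0.00618) with the MCF10A/miR-122 EV label, and -0.44 (adjusted p = 0.0398) and -0.68 (adjusted p = 0.00476) with the MDA-MB-231 EV label. With the MCF10A/miR-122 EV label Ccne1 had 1.15 (adjusted p = 0.0207), the centrosomal kinase gene Nek2 had -0.76 (adjusted p = 0.0169), Ckap2l had -1.41 (adjusted p = 0.0273) and Rfc4, a subunit of the clamp loader, had -0.67 (adjusted p = 0.0277). With the MDA-MB-231 EV label Ckap2l had -1.55 (adjusted p = 0.0248), Cdc25b, a phosphatase that activates CDK1, had -0.75 (adjusted p = 0.0256), Cdt1 had -0.78 (adjusted p = 0.0371) and Ncapd3, a condensin subunit, had 0.49 (adjusted p = 0.0384). Without PBS replicate 3 the calls of Nek2, Ckap2l and Rfc4 with the MCF10A/miR-122 EV label were lost, with values of -0.5, -0.73 and -0.56 (adjusted p = 0.0615, 0.168 and 0.0727). So were those of Ckap2l, Cdc25b, Cdt1 and Timeless with the MDA-MB-231 EV label, with values of -0.88, -0.51, -0.76 and -0.41 (adjusted p = 0.123, 0.0822, 0.0626 and 0.0737).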

How the data were processed

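Mouse liver RNA was sequenced as 24 stranded mRNA libraries of TRIZOL-extracted RNA, per the labels' protocols. The submitters' processing notes name bcl2fastq 2.18.0.12, TopHat2 and mouse build mm9. The authors deposited raw counts of reads for each gene symbol. How reads were assigned to genes, and with what strand setting, is not given in the sources used here, so genes that share sequence with or overlap another gene are uncertain. Such genes were marked from 32-base words of GENCODE M21 transcripts, at 10% or more found in another gene.

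From the deposited counts, 27 rows of 11 repeated symbols (0.0744% of counts) were left out. Counts were tested in R 4.3.3 with edgeR 4.0.16 (quasi-likelihood F test, two-sided, TMM, filterByExpr by group, 24 libraries in 1 fit, Benjamini-Hochberg over 13773 genes, threshold 0.05), checked on simulated counts. The common biological coefficient of variation was 16.8%. Standard errors (SE) were derived from the F statistic. Alternatives were limma 3.58.1 (voom with quality weights), DESeq2 1.42.0, RLE size factors, no filter or a strict filter (at least 1 CPM in 6 libraries), 12 libraries alone, identities by library name, a replicate block and each library left out. No pair of libraries of 1 group agreed within sampling noise (chi-square per degree of freedom of at least 14.8).

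The genes and lists were chosen with earlier results of these data known. Members given in full were, in each role, the one with the smallest p in MCF10A EV over PBS and the one with the highest level. Related genes were named by smallest p, at most 6 a comparison, except where a gene is not reported here. Promoter sequences are from RefSeq, of another build than the counts.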

Additional observations from a re-analysis of the deposited data

Results flagged for a closer look

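A value was singled out where the highest or lowest of 6 libraries lay further from its neighbour than Dixon's 95% limit for the range of the group. Of 140 checks (the tested genes and the summed level in 4 groups), 21 passed, and chance passes about 1 in 20 single checks. The genes share the same libraries and the sum is made of them, so the checks are not independent. One high library can pass many together, and the count of 21 is not a measure against chance. Of these 21, 15 were PBS replicate 3 as the highest library.

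In PBS replicate 3 Ccnb1 was at 2.91 CPM, with 0.994 CPM in the next PBS library, Ccnb2 at 2.8 (next 1.12), Cdk1 at 4.35 (next 1.87) and Foxm1 at 2.73 (next 1.33). Mki67 was at 16.3 CPM there (next 5.29), Top2a at 5.3 (next 1.91), Aurkb at 1.29 (next 0.479) and Birc5 at 4.01 (next 1.76). Nuf2 was at 1.44 CPM (next 0.426), Cenpe at 2.06 (next 0.863) and Cenpf at 4.38 (next 1.83). Kif20a was at 7.4 CPM (next 4.53), Nusap1 at 2.39 (next 0.784) and Tpx2 at 2.95 (next 1.14). The sum of all members was 207 CPM in that library, with 130 CPM in the next.

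The other 6 were spread over 6 libraries. Mcm3 was at 5.09 CPM in MCF10A EV replicate 5 (next 2.81) and at 5.75 CPM in MCF10A/miR-122 EV replicate 2 (next 3.59). Birc5 was at 1.73 CPM in MCF10A EV replicate 4 (next 0.912) and at 3.51 CPM in MCF10A/miR-122 EV replicate 5 (next 1.89). Prc1 was at 1.8 CPM in MDA-MB-231 EV replicate 6 (next 1.37), and Foxm1 was lowest at 0.43 CPM in MDA-MB-231 EV replicate 3 (next 0.777).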

How the results depend on the processing

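No called gene reversed direction under the alternatives run. The median log2 fold change of the tested members moved by less than the spread between libraries in each of 119 refits, but its sign turned for MCF10A/miR-122 EV over PBS without PBS replicate 3 (0.01, against -0.31) and, near 0, for MDA-MB-231 EV against MCF10A/miR-122 EV livers under 3 settings (0.02 to 0.04, against -0.04), of which the identities by library name swap these groups by construction. The spread between libraries in comparisons with PBS includes PBS replicate 3 itself, so a move smaller than that spread does not show stability there. For single genes 562 refits kept the side of the threshold, 149 lost the call and 22 gained it. For MCF10A EV over PBS, with 4 genes called, DESeq2 called 10, the strict filter 2, the 12 libraries alone 0 and the replicate block 1, and leaving out 1 library gave 0 to 11. For MCF10A/miR-122 EV over PBS, with 7 called, voom with weights called 4 and the 12 libraries alone 3, and leaving out 1 library gave 2 to 9. For MDA-MB-231 EV over PBS, with 5 called, the strict filter called 3, the 12 libraries alone 2 and the replicate block 3, and leaving out 1 library gave 2 to 6. For MCF10A/miR-122 EV over MCF10A EV, with 6 called, DESeq2 called 12 and identities by library name 3, and leaving out 1 library gave 4 to 10. For MDA-MB-231 EV over MCF10A EV, with 3 called, DESeq2 called 7, voom with weights 6, the 12 libraries alone 7 and identities by library name 6, and leaving out 1 library gave 0 to 3. Identities by library name swap the MDA-MB-231 EV and MCF10A/miR-122 EV groups by construction, so each count is the main count of the other group. The cause of the other moves was not tested. Shares over all genes are not given beside these counts, so the counts do not single out the division genes. Replicate numbers did not pair the libraries: deviations of same-numbered libraries had mean correlations of -0.044 to 0.157, and 4 of 24 libraries correlated best with their own number, so the block is given only here. Related genes without PBS replicate 3 were an alternative chosen after seeing the data. At 21.3 to 33.7 M counts per library, 5 members had too few counts to test.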
